A study of Mus musculus with 10 samples.

Results

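Axons are filled by a small set of abundant cytoskeletal proteins and served by motors that run along them, and several of the genes concerned carry mutations in people with amyotrophic lateral sclerosis (ALS). The 9 mouse genes described here were chosen by name for that role: the neurofilament subunits Nefl, Nefm, Nefh and Ina, the microtubule regulator Stmn2, the motor partner Dctn1, the motor protein Kif5a, the tubulin Tuba4a and the actin regulator Pfn1. They are 9 of the 22024 gene identifiers in the count table, and all 9 were among the 15191 genes with enough counts to be tested.

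The data are read counts per gene from polyA RNA of lumbar cord, 1 library per animal, from 10 females at 3 months of age. The M337V group (animals 1, 2, 3, 7 and 9; n = 5) had human TARDBP with the ALS-linked M337V change, on a bacterial artificial chromosome placed in the Rosa26 locus by PhiC31 cassette exchange. The WT group (animals 8 and 10; n = 2) had the unmutated version of that construct, and the NTg group (animals 4, 5 and 6; n = 3) was labelled nontransgenic, a label that the human TARDBP counts of animal 4 go against. The product of TARDBP, TDP-43, binds RNA and forms aggregates in the motor neurons of most people with ALS. The mouse's own Tardbp was left in place in every group, the human gene was present as genomic DNA rather than behind a cell type-specific promoter, and each transgene stood at a single insertion site. The founders had been crossed to C57BL/6J for at least 3 generations, and the labels do not say for each animal whether it was homozygous or heterozygous.

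Neurofilaments are the intermediate filaments of neurons. Nefl, the light chain, can build filaments with Nefm, the medium chain, Nefh, the heavy chain, or Ina, alpha-internexin, and the supply of subunits sets the width of large myelinated axons such as those of motor neurons. Cargo moves along axonal microtubules by kinesin away from the cell body and by dynein with its partner complex dynactin towards it. TDP-43 binds many neuronal transcripts, and in human neurons its loss lets a cryptic exon into STMN2, an exon that the mouse gene does not share.

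The 9 genes lie on 7 chromosomes in the GRCm38 annotation. Nefl (chr14:68083863-68089095, plus strand) and Nefm (chr14:68082590-68124846, minus strand) are neighbours on chromosome 14, and through 1 long Nefm transcript 1108 of the 3380 exon bases of Nefl are also exon of Nefm on the opposite strand. Nefh (chr11:4938754-4948064, minus) and Pfn1 (chr11:70651850-70654644, minus) lie far apart on chromosome 11. Ina is at chr19:47014698-47025327 (plus), Stmn2 at chr3:8509360-8561606 (plus) and Dctn1 at chr6:83165920-83200117 (plus). Kif5a is at chr10:127225696-127263348 (minus) and Tuba4a at chr1:75214228-75219865 (minus). Opposite-strand genes also overlap exons of Ina (Nt5c2, 14.1% of the exon bases of Ina) and Tuba4a (Stk16, 37.3%). The library kit kept strand, but the strand setting used for counting is not given in the sources used here, so reads of these overlapping pairs may be shared. Nt5c2 averaged 88.4 ± 2.79 CPM (counts scaled to library size and composition) in M337V cords, 89.5 ± 8.29 CPM in WT cords and 90.1 ± 5.72 CPM in NTg cords, and Stk16 averaged 39.2 ± 1.88, 40.9 ± 1.07 and 39.3 ± 1.1 CPM in M337V, WT and NTg cords (SD, n = 5, 2 and 3).

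The repeat region of Nefh is the sequence feature that sets it apart from the other members, and it bears on how well short reads can be placed within the gene. Its coding sequence carries lysine-serine-proline repeats, the sites where the heavy chain is phosphorylated in axons. The motif AAGTCNCCN, a DNA spelling of that triplet searched on the coding strand in any frame, occurs 34 times in the coding sequence of Nefh, all 34 in frame. It occurs 2 times in frame in Nefm and 0 times in frame in the other 7 members. Of 21901 coding genes, 17.5% hold it at least once anywhere in their longest coding transcript, in any frame and with untranslated parts included. Counted in that way, the gene next after Nefh holds it 17 times. The stretch of 180 bases with the most matches lies at chr11:4940884-4941063 (GRCm38, minus strand, exon 4, coding bases 1555 to 1734), with the 10 matches in capitals.
Nefh: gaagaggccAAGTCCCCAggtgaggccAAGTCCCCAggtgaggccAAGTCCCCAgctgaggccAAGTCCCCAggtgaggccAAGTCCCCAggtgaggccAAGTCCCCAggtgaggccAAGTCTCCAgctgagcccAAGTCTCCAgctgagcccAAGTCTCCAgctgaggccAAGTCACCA
Of all stretches of 24 bases in the Nefh transcript, 11.5% occur more than once within it, and of stretches of 100 bases 1.13% do. No stretch of 100 bases of any of the 9 transcripts occurred in another gene's transcript on the same strand, so reads of that length repeat within Nefh but were not shared with other genes.

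Tuba4a is the member with close relatives: alpha-tubulin genes encode nearly the same protein. Tuba4a and Tuba1a, a major alpha-tubulin gene of neurons, were 85.3% identical over 1344 coding bases (198 differences), and the longest identical run was 29 bases. No stretch of 100 bases of the Tuba4a transcript occurred in the transcript of another gene on its strand.

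The labels and the tissue were checked first. Human TARDBP averaged 125 ± 9.69 CPM in M337V cords and 120 ± 9.29 CPM in WT cords, whereas the libraries labelled NTg held 2415 counts in animal 4, 1 count in animal 5 and 4 counts in animal 6. The library labelled NTg animal 4 therefore goes against its label, and without it none of the 9 genes passed the test in any comparison. Mouse Tardbp averaged 256 ± 20.4 CPM in M337V cords, 249 ± 7.5 CPM in WT cords and 244 ± 6.2 CPM in NTg cords. All 16 motor neuron markers were detected in at least 1 library. Summed caudal Hox genes, which mark the lumbar and more posterior cord, ran from 41.2 to 166 CPM in M337V cords, from 12.6 to 220 CPM in WT cords and from 174 to 224 CPM in NTg cords, with the lowest value in WT 8. Library totals ran from 18724888 to 21041474 counts, and the smallest count of any member in any library was 1924 (Pfn1), where counting error alone is 2.28% of the value.

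None of the 9 genes differed between the genotypes past the threshold. The test was the quasi-likelihood test of edgeR fitted over all 10 libraries with 1 mean per genotype, and the threshold was a p adjusted by the Benjamini-Hochberg method over all 15191 genes below 0.05. In M337V against NTg 0 of 9 members passed, where 4.29% of all genes tested did (2.67% higher and 1.61% lower). In WT against NTg 0 of 9 members passed, where 5.64% of all genes did (3.59% higher and 2.05% lower). In M337V against WT 0 of 9 members passed, where 0% of all genes did (0 genes, with 1012 at an unadjusted p below 0.05, 30 called by DESeq2 and 0 by limma-voom). At an unadjusted p below 0.05 there was 1 member (Dctn1) in M337V against NTg, 1 (Dctn1) in WT against NTg and 0 in M337V against WT. Over the 15191 genes tested the counts were 3718, 3842 and 1012. DESeq2 and limma-voom each called 1 member, Dctn1 in M337V against NTg, and none in the other comparisons. In the same order of comparisons DESeq2 called 9.87%, 11.3% and 0.197% of all genes and limma-voom 8.66%, 1.42% and 0%. Groups that did not overlap at all were found for 1 member in M337V against NTg, beside 18.1% of all genes (9.51% higher and 8.61% lower), for 3 members in WT against NTg, beside 41.7% (19.6% higher and 22.1% lower), and for 0 members in M337V against WT, beside 9.5% (4.85% higher and 4.65% lower).

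The differences were also small. All 27 log2 differences (9 genes in 3 comparisons) were at most 0.26 in size, and the 95% interval included 0 in 25 of them. The median log2 difference of the members was -0.05 in M337V against NTg, 0.02 in WT against NTg and -0.07 in M337V against WT, beside -0.01, -0.02 and 0.00 over all genes tested. The widest intervals were those of Nefm, which in M337V against WT ran from -0.53 to 0.00. A p that misses the threshold does not show equal levels, and the intervals give the sizes that these 10 libraries allow.

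**Figure D1:**
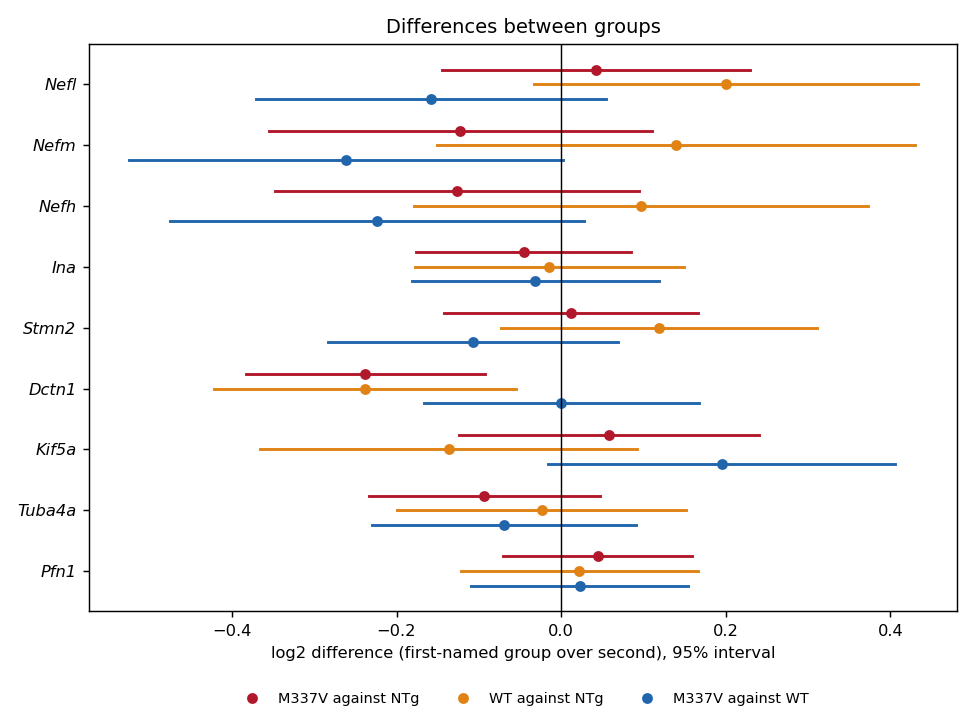
Log2 difference of each gene between the groups (x axis; positive values are higher in the group named first), with 95% intervals from the fit over all 10 libraries, for M337V against NTg, WT against NTg and M337V against WT. Only the intervals of Dctn1 in the comparisons with NTg (M337V against NTg -0.38 to -0.09, WT against NTg -0.42 to -0.05) leave out 0.

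Nefl, the subunit on which the filament is built and the protein measured in blood as a marker of axon damage, was at 1944, 2097, 2568, 2116 and 2254 CPM in M337V cords 1, 2, 3, 7 and 9, at 2280 and 2621 CPM in WT cords 8 and 10, and at 1991, 2162 and 2244 CPM in NTg cords 4, 5 and 6. The highest libraries were WT 10 and M337V 3, and the M337V cords spanned the whole range of the NTg cords. Nefl averaged 2196 ± 235 CPM in M337V cords, 2450 ± 242 CPM in WT cords and 2132 ± 129 CPM in NTg cords (SD, n = 5, 2 and 3). The log2 difference was 0.04 ± 0.09 (SE) in M337V against NTg (edgeR adjusted p = 0.801), 0.20 ± 0.11 in WT against NTg (adjusted p = 0.265) and -0.16 ± 0.10 in M337V against WT (adjusted p = 0.797). Without WT 10 the differences that involve the WT group were 0.10 against NTg and -0.05 for M337V against WT. Both WT cords were above all 3 NTg cords. That lack of overlap was shared by 41.7% of all genes in this comparison of 2 libraries against 3, and Nefl is 1 of 3 members with it, beside Dctn1 and Kif5a, both lower in WT.

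Nefm, whose long tail reaches out from the filament, was at 1123, 1280, 1661, 1443 and 1437 CPM in M337V cords 1, 2, 3, 7 and 9, at 1589 and 1741 CPM in WT cords 8 and 10, and at 1382, 1502 and 1651 CPM in NTg cords 4, 5 and 6. M337V 1 and M337V 2 were the lowest of the 10 libraries and M337V 3 was the second highest, so the M337V group alone covered most of the range. Nefm had the largest difference of any member, -0.26 ± 0.12 in M337V against WT (SE, edgeR adjusted p = 0.748). Its means were 1389 ± 201 CPM in M337V cords, 1665 ± 107 CPM in WT cords and 1512 ± 135 CPM in NTg cords (SD, n = 5, 2 and 3). The difference was -0.12 ± 0.11 in M337V against NTg and 0.14 ± 0.13 in WT against NTg, with adjusted p of 0.516 and 0.550, and without WT 10 the WT against NTg difference was 0.07.

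Nefh, the heavy chain, followed Nefm closely. It was at 659, 739, 909, 872 and 842 CPM in M337V cords 1, 2, 3, 7 and 9, at 875 and 1003 CPM in WT cords 8 and 10, and at 795, 885 and 953 CPM in NTg cords 4, 5 and 6. M337V 1 was again the lowest and WT 10 the highest, and the groups overlapped. The log2 difference was -0.13 ± 0.10 in M337V against NTg (SE, edgeR adjusted p = 0.477), 0.10 ± 0.13 in WT against NTg (adjusted p = 0.672) and -0.22 ± 0.12 in M337V against WT (adjusted p = 0.769), and without WT 10 the last 2 were -0.005 and -0.12. M337V cords averaged 804 ± 103 CPM, WT cords 939 ± 90.7 CPM and NTg cords 878 ± 79.2 CPM (SD, n = 5, 2 and 3).

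Ina, the fourth neurofilament subunit, was far steadier than the other neurofilament genes. It was at 318, 285, 323, 341 and 344 CPM in M337V cords 1, 2, 3, 7 and 9, at 324 and 334 CPM in WT cords 8 and 10, and at 330.0, 325 and 343 CPM in NTg cords 4, 5 and 6. Apart from M337V 2 every library was between 318 and 344 CPM. The log2 differences were -0.05 ± 0.06, -0.01 ± 0.07 and -0.03 ± 0.07 (SE) in M337V against NTg, WT against NTg and M337V against WT, and the adjusted p was 0.683, 0.929 and 0.947 (edgeR).

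**Figure D2:**
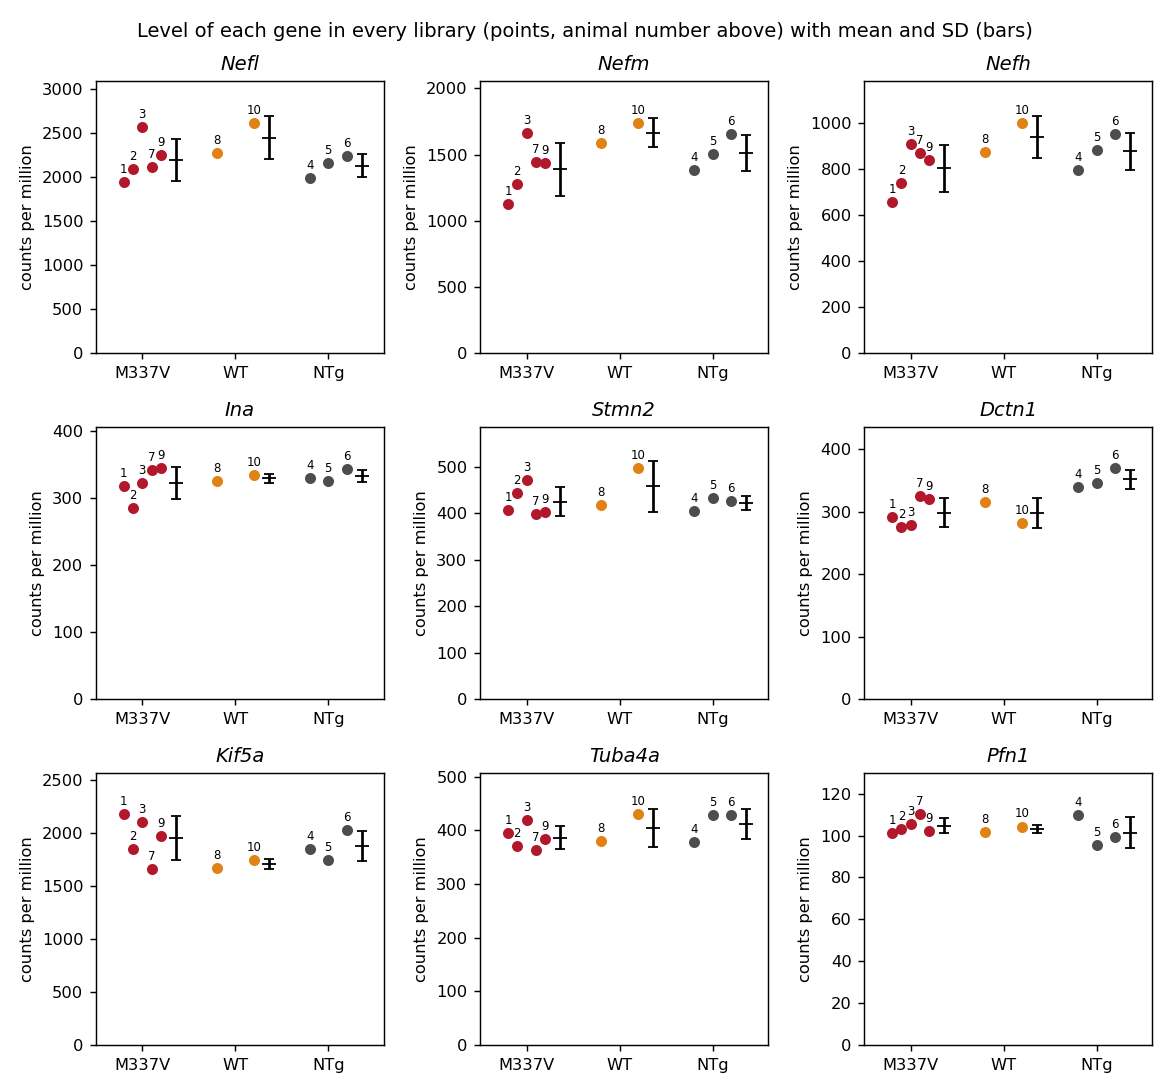
CPM of each of the 9 genes (y axis, from 0) in every library of the M337V, WT and NTg groups, with the animal number above each point and the group mean and SD as a bar. Dctn1 is the gene in which all 5 M337V cords (276 to 325 CPM) lie below all 3 NTg cords (340.3 to 370 CPM). In the panels of Nefl, Nefm and Nefh, M337V 1 is the lowest point and WT 10 the highest.

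Per length, Nefl was the most abundant member, and per annotated exon base Dctn1 and Pfn1 were the least. With the bases covered by any annotated exon as the length, Nefl averaged 650 ± 69.6 reads per kilobase of exon, scaled to library size as CPM is (RPKM), in M337V cords, 725 ± 71.4 in WT cords and 631 ± 38.2 in NTg cords (SD, n = 5, 2 and 3). Kif5a (279, 244 and 268 RPKM in M337V, WT and NTg) and Nefm (240, 288 and 262 RPKM) were next, with Kif5a ahead in the M337V and NTg means and Nefm in the WT mean. Nefh (201, 235 and 220 RPKM) followed. Tuba4a (104, 109 and 111) and Ina (99.4, 102 and 103) were level with each other within their spread, and Stmn2 (75.8, 81.7 and 75.2) came after them. Dctn1 (45.9, 45.8 and 54.1) and Pfn1 (43.5, 42.8 and 42.2) did not differ beyond their spread in the transgenic groups. The order below Nefl depends on the length used: with a single coding transcript as the length, Nefm was above Kif5a in all 3 groups (377, 452 and 411 RPKM against 310, 271 and 298 RPKM), Stmn2 was above Tuba4a, and Dctn1 was the lowest (69.1, 69.1 and 81.4 RPKM). With that length Pfn1 (121, 120 and 118 RPKM) was above Ina (99.4, 102 and 103 RPKM).

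Within a library, the ratio of Nefm reads to Nefl reads was lower in each mutant cord than in any NTg cord. The size of this ratio, but not its order among libraries, depends on the length taken for Nefm. Here that length is all 5782 annotated exon bases, against 3680 in the coding transcript. The 2 genes also share 1108 exon bases on opposite strands, where reads may be shared. The per-length ratio of Nefm to Nefl was 0.338, 0.357, 0.378, 0.399 and 0.373 in M337V cords 1, 2, 3, 7 and 9, 0.408 and 0.388 in WT cords 8 and 10, and 0.406, 0.406 and 0.430 in NTg cords 4, 5 and 6. M337V and NTg did not overlap, and the WT cords overlapped both groups. The nearest values were 0.399 in M337V 7 and 0.406 in NTg 4. Of all single genes tested, 18.1% did not overlap between M337V and NTg either. The like share among ratios of gene pairs was not computed, and this ratio is 1 of several described here. The group means were 0.369 ± 0.023, 0.398 ± 0.014 and 0.414 ± 0.014 in M337V, WT and NTg (SD, n = 5, 2 and 3), and the ratio is given as a description with no test. Nefh to Nefl averaged 0.310 ± 0.024 in M337V, 0.324 ± 0.001 in WT and 0.348 ± 0.011 in NTg, with M337V 7 at 0.349 among the NTg values. Nefh to Nefm, the long-tailed subunits, was nearly constant at 0.840 ± 0.030, 0.816 ± 0.026 and 0.841 ± 0.011. Ina to Nefl was 0.154 ± 0.017, 0.141 ± 0.011 and 0.163 ± 0.009, and its lowest values were those of M337V 3 (0.131) and WT 10 (0.133), where Nefl was highest. The GC content of the transcripts is 57.8% for Nefm and 58.4% for Nefh, against 48.9% for Nefl, and with each library's trend over GC content and length removed the M337V against NTg difference was 0.04 ± 0.12 for Nefm and 0.08 ± 0.09 for Nefl (SE).

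Nefl, Nefm and Nefh moved together from library to library. Over the 10 libraries the Pearson correlation of log2 CPM was 0.976 for Nefm with Nefh (Spearman 0.976), 0.850 for Nefl with Nefm (0.891) and 0.792 for Nefl with Nefh (0.818). Without the 2 libraries farthest from the median these were 0.931, 0.831 and 0.791, and after subtracting each group's mean they were 0.968, 0.920 and 0.864. Of 36 pairs of members only Nefl with Stmn2 reached a like value (0.799), and without M337V 3 and WT 10 it was 0.227. Ina, though a filament partner, correlated at 0.234 with Nefl, 0.465 with Nefm and 0.551 with Nefh. Correlations are given over 10 libraries that share their scaling, and as a description only.

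The libraries highest in the shared neurofilament profile, WT 10 and M337V 3, were also highest in the summed CPM of motor neuron, pan-neuronal and sensory neuron markers. In such sums abundant genes weigh most. The mean standardized profile of Nefl, Nefm and Nefh was lowest in M337V 1 (-1.80) and M337V 2 (-0.91) and highest in WT 10 (1.45) and M337V 3 (1.00). The 16 motor neuron markers summed to 678 CPM in M337V 1 and 724 CPM in M337V 2, the lowest of all libraries, and to 985 CPM in WT 10 and 975 CPM in M337V 3, the highest. The remaining libraries were M337V 7 at 773 CPM and M337V 9 at 844 CPM, WT 8 at 974 CPM, and NTg 4, 5 and 6 at 819, 783 and 863 CPM. WT 8 was thus above NTg 6 in motor neuron markers but below it in the profile (0.38 against 0.65). The part of these markers in the neurofilament levels was not tested, and in tissue RNA fewer motor neurons and less RNA per motor neuron cannot be told apart. The 16 pan-neuronal markers varied less, with sums of 8540 to 9068 CPM in M337V cords, 8660 to 9268 CPM in WT cords and 8123 to 8790 CPM in NTg cords. Their highest sums were those of WT 10 and M337V 3, and their lowest was that of NTg 4. A score with equal weight per gene, the mean log2 level minus each gene's mean, gave another order. For pan-neuronal markers it was -0.032 in WT cords, 0.002 to 0.075 in NTg cords and -0.055 to 0.039 in M337V cords. For motor neuron markers it was 0.154 to 0.325 in WT, -0.066 to -0.029 in NTg and -0.333 to 0.317 in M337V. Markers of sensory neurons of the dorsal root ganglion, which also make neurofilaments, summed to 66.4 to 100 CPM in M337V cords, 77.1 to 98.1 CPM in WT cords and 74.2 to 88.4 CPM in NTg cords. The lowest value was that of M337V 1, and the highest were those of M337V 3 and WT 10. The equal-weight score of the sensory markers was -0.201 to 0.44 in M337V, -0.078 to -0.02 in WT and -0.034 to 0.191 in NTg. Prph and Isl2 are in both the motor neuron and the sensory list, so these sums are not independent.

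**Figure D3:**
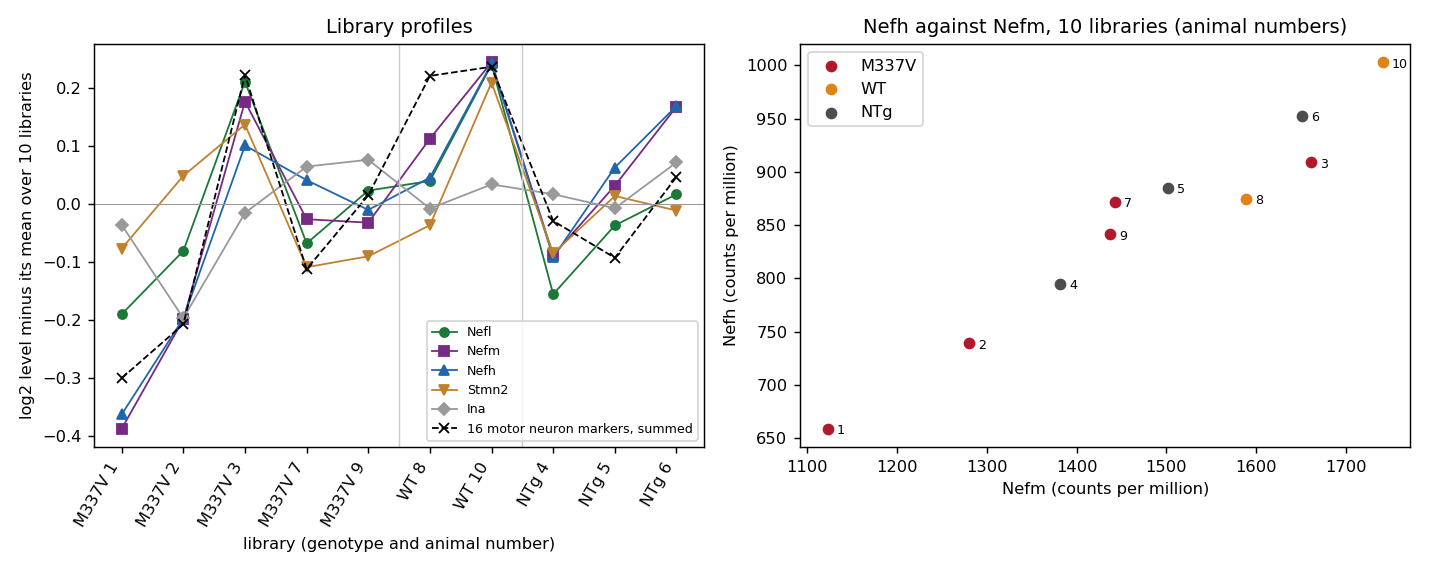
Left, log2 CPM of Nefl, Nefm, Nefh, Stmn2 and Ina and of the summed 16 motor neuron markers in each library, minus its mean over the 10 libraries (y axis), with libraries of M337V, WT and NTg from left to right (x axis). Right, CPM of Nefh (y axis) against Nefm (x axis), with animal numbers. Nefm and Nefh lie close to 1 line from M337V 1 to WT 10 whatever the genotype, and Ina stays near 0.

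The genes outside the 9 whose levels were most like this profile were Vipr2, a receptor for vasoactive intestinal peptide, Ssx2ip, a centrosome protein, Calcb, the calcitonin gene-related peptide beta of motor and sensory neurons, Hdlbp, an RNA-binding protein, and Acly, an enzyme of fatty acid synthesis. Their Pearson correlation with the profile over 10 libraries was 0.953, 0.951, 0.938, 0.928 and 0.922, taken as the highest of all genes tested. Calcb ran from 6.40 CPM in M337V 1 to 14.4 CPM in WT 10 and Vipr2 from 2.92 to 8.09 CPM in the same libraries. None of the 5 passed the test in M337V against NTg (edgeR adjusted p from 0.603 to 0.887).

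Stmn2, a tubulin-binding protein needed for axon regrowth, was at 407, 444, 472, 398 and 403 CPM in M337V cords 1, 2, 3, 7 and 9, at 419 and 496 CPM in WT cords 8 and 10, and at 405, 433 and 426 CPM in NTg cords 4, 5 and 6. WT 10 and M337V 3 were the highest, as for Nefl, and the groups overlapped. The log2 difference was 0.01 ± 0.07 (SE) in M337V against NTg, with a 95% interval from -0.14 to 0.17 (edgeR adjusted p = 0.936). It was 0.12 ± 0.09 in WT against NTg and -0.11 ± 0.08 in M337V against WT (adjusted p = 0.432 and 0.834), and without WT 10 these were -0.01 and 0.02. Of the other stathmins, Stmn4 was at 209 ± 20.9 CPM in M337V cords, 210.1 ± 2.02 CPM in WT cords and 175 ± 6.40 CPM in NTg cords (SD, n = 5, 2 and 3), a log2 difference of 0.25 ± 0.07 in M337V against NTg that did not pass (adjusted p = 0.0707). Stmn1 and Stmn3 were at 0.06 ± 0.14 and 0.07 ± 0.08, and none of the 3 passed in any comparison with edgeR. In M337V against NTg, WT against NTg and M337V against WT, 1, 2 and 1 had an unadjusted p below 0.05. The counts over the 15191 genes tested were 3718, 3842 and 1012. DESeq2 called 1, 1 and 0 of the 3, beside 9.87%, 11.3% and 0.197% of all genes. With limma-voom it was 0, beside 8.66%, 1.42% and 0%.

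Dctn1, the p150Glued subunit with which dynactin holds on to microtubules, came nearest to the threshold. It was at 292, 276, 279, 325 and 320.1 CPM in M337V cords 1, 2, 3, 7 and 9, at 315 and 282 CPM in WT cords 8 and 10, and at 340.3, 346 and 370 CPM in NTg cords 4, 5 and 6. Every M337V cord and both WT cords were below every NTg cord, and among the mutant cords 1 to 3 lay below 7 and 9. Dctn1 was the only member whose M337V and NTg values did not overlap, where 18.1% of all genes tested did not (8.61% with M337V lower). The means were 298 ± 23.1 CPM in M337V cords, 298 ± 23.8 CPM in WT cords and 352 ± 15.6 CPM in NTg cords (SD, n = 5, 2 and 3).

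The log2 difference of Dctn1 was -0.24 ± 0.07 (SE) in M337V against NTg, a level of 0.848 times that of NTg (edgeR adjusted p = 0.0622). It was -0.24 ± 0.08 in WT against NTg (adjusted p = 0.104; -0.32 without WT 8 and -0.16 without WT 10) and 0.00 ± 0.08 in M337V against WT (adjusted p = 0.999, 95% interval -0.17 to 0.17). The M337V against NTg difference stayed negative under all 21 alternatives and passed under 6 of them. It passed with DESeq2 (-0.23, adjusted p = 0.0145) and limma-voom (-0.24, adjusted p = 0.0334). Without M337V 7, WT 8 or WT 10 the adjusted p was 0.0467, 0.0494 and 0.0495, and without both M337V 7 and M337V 9 the difference was -0.31 (adjusted p = 0.0222). Without M337V 1 to 3 it was -0.12 (adjusted p = 0.495). Without the library labelled NTg animal 4 it was -0.25 (adjusted p = 0.116), and without NTg 6, the highest library, -0.20 (adjusted p = 0.256).

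The GC content of Dctn1, 58.8%, is higher than that of 91.5% of the genes tested, and with each library's trend over GC content and transcript length removed the difference was -0.08 ± 0.05 in M337V against NTg (adjusted p = 0.425) and -0.04 in WT against NTg (adjusted p = 0.747). The 14 oligodendrocyte markers also separated the groups, at 32120 to 39560 CPM in M337V cords, 35040 to 38940 CPM in WT cords and 23970 to 28510 CPM in NTg cords. Their part in the Dctn1 difference was not tested. The same holds for each gene of the pathway lists that passed against NTg.

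**Figure D4:**
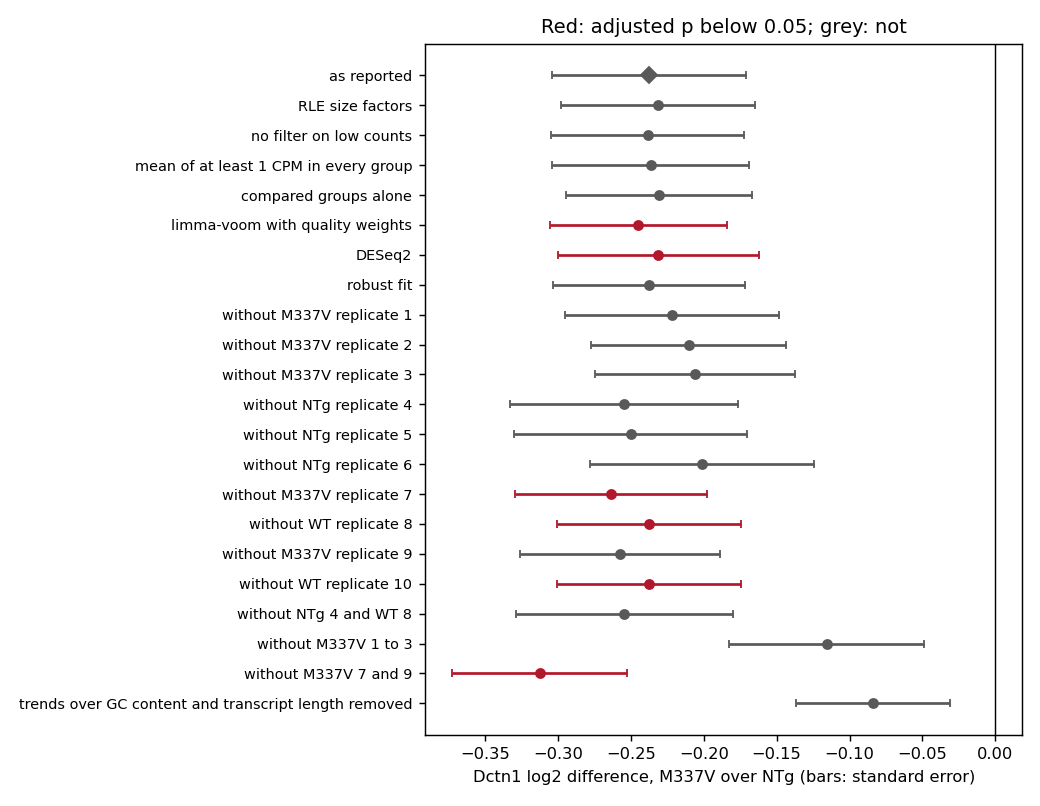
Log2 difference of Dctn1 in M337V against NTg (x axis, bars are standard errors) as reported and under the 21 alternatives (y axis), in red where the adjusted p was below 0.05. The value is -0.24 as reported and nearest to 0 with the GC and length trends removed (-0.08) and without M337V 1 to 3 (-0.12).

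The other dynactin subunits were compared in the same fit, with no test of their difference from Dctn1. The log2 differences in M337V against NTg were -0.05 ± 0.05 for Dctn2, 0.04 ± 0.06 for Dctn3, 0.16 ± 0.06 for Dctn4, 0.13 ± 0.08 for Dctn5 and 0.09 ± 0.08 for Dctn6 (SE), and none passed. Dync1h1, the dynein heavy chain, was at -0.41 ± 0.14 (edgeR adjusted p = 0.108). Of the 25 other dynactin, dynein and adaptor genes, 2 rose and 0 fell in M337V against NTg, where 4.29% of all genes passed. They were the dynein adaptors Hook3 (208 ± 14.2 CPM in M337V against 178 ± 3.69 CPM in NTg, adjusted p = 0.0464) and Bicd1 (97.9 ± 8.61 against 79.6 ± 6.27 CPM, adjusted p = 0.0466; SD, n = 5 and 3). In WT against NTg 2 rose, the dynein regulators Pafah1b1, also called Lis1 (log2 difference 0.26 ± 0.06, adjusted p = 0.0286), and Nde1 (0.38 ± 0.09, adjusted p = 0.0334), and 0 fell, where 5.64% of all genes passed. DESeq2 called 9 of the 25 in M337V against NTg and 8 in WT against NTg, and limma-voom called 5 and 0. The shares of all genes called were 9.87% and 11.3% with DESeq2 and 8.66% and 1.42% with limma-voom.

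Kif5a, the neuronal heavy chain of kinesin-1 that carries neurofilaments, was at 2176, 1847, 2099, 1662 and 1971 CPM in M337V cords 1, 2, 3, 7 and 9, at 1669 and 1740 CPM in WT cords 8 and 10, and at 1848, 1746 and 2028 CPM in NTg cords 4, 5 and 6. M337V 7 was the lowest and M337V 1 the highest of all, so the mutant cords enclosed both other groups. The log2 difference was 0.06 ± 0.08 (SE) in M337V against NTg (edgeR adjusted p = 0.711) and 0.20 ± 0.10 in M337V against WT (adjusted p = 0.762). In WT against NTg it was -0.14 ± 0.10 (adjusted p = 0.447), and although both WT cords lay below all NTg cords, 22.1% of all genes tested did the same. Kif5a did not follow the neurofilaments: its correlation with Nefl, Nefm and Nefh over 10 libraries was -0.085, -0.317 and -0.381.

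Kif5b, the kinesin-1 heavy chain made in all cells, passed the threshold as higher in M337V and in WT than in NTg, the WT difference depending on which WT cord was kept. It averaged 1131 ± 63.6 CPM in M337V cords, 1118 ± 156 CPM in WT cords and 885 ± 21.7 CPM in NTg cords (SD, n = 5, 2 and 3), a log2 difference of 0.35 ± 0.07 in M337V against NTg and 0.34 ± 0.08 in WT against NTg (edgeR adjusted p = 0.0246 and 0.0404). Kif5c, the other neuronal chain, was at 0.10 ± 0.06 in M337V against NTg (adjusted p = 0.366). The per-length ratio of Kif5a to Kif5b was therefore lower, at 1.97 ± 0.20 in M337V and 1.75 ± 0.19 in WT, against 2.42 ± 0.22 in NTg, although M337V 1 at 2.29 was above NTg 5 at 2.27. The GC content of Kif5b is 41.1%, with 7.7% of tested genes below it, and with the GC and length trends removed its difference was 0.26 in M337V against NTg (adjusted p = 0.0514) and 0.23 in WT against NTg (adjusted p = 0.104). Without NTg 4, 5 or 6 the M337V against NTg difference had an adjusted p of 0.0516, 0.0599 and 0.151. The WT against NTg difference was 0.19 without WT 10 (adjusted p = 0.240) and 0.47 without WT 8, each with a lone WT cord assumed to vary like the other groups. Of 19 other kinesin transport genes, 2 rose in M337V against NTg (Kif5b and Trak2, a mitochondrial adaptor of kinesin) and 2 in WT against NTg (Kif5b and Kif21a), and 0 fell, where 4.29% and 5.64% of all genes passed. DESeq2 called 4 of the 19 in each comparison, and limma-voom called 4 in M337V against NTg and 0 in WT against NTg. The shares of all genes called were 9.87% and 11.3% with DESeq2 and 8.66% and 1.42% with limma-voom.

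**Figure D5:**
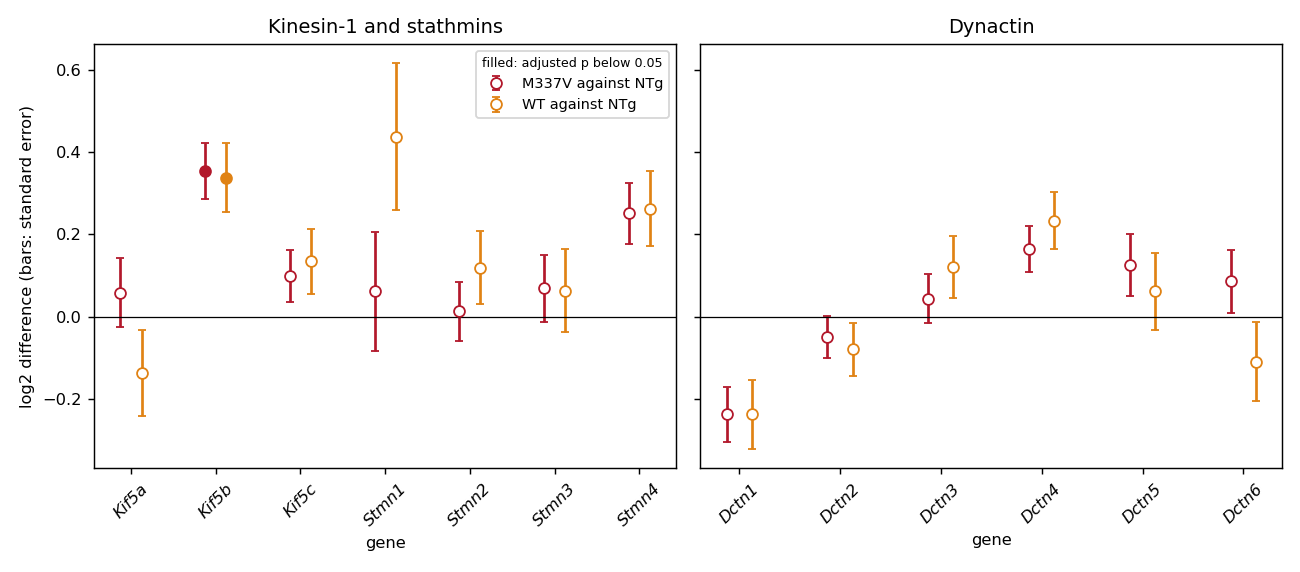
Log2 differences against NTg (y axis, bars are standard errors) of the kinesin-1 heavy chains and stathmins on the left and of the dynactin subunits on the right, for M337V and WT, with filled points where the adjusted p was below 0.05. Kif5b is the filled gene (0.35 in M337V and 0.34 in WT), and Dctn1 stands below the other dynactin subunits in both.

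Tuba4a, one of the alpha-tubulins of microtubules, was at 395, 371, 419, 363 and 383 CPM in M337V cords 1, 2, 3, 7 and 9, at 380.0 and 430.1 CPM in WT cords 8 and 10, and at 379, 429 and 428 CPM in NTg cords 4, 5 and 6. The groups overlapped, and NTg 4 stood with the lower mutant cords. The log2 difference was -0.09 ± 0.06, -0.02 ± 0.08 and -0.07 ± 0.07 (SE) in M337V against NTg, WT against NTg and M337V against WT (edgeR adjusted p = 0.403, 0.889 and 0.874). None of the 15 other tubulins tested passed in any comparison with edgeR or limma-voom. In M337V against NTg 6 had an unadjusted p below 0.05 and DESeq2 called 3. In WT against NTg the counts were 6 and 2, and in M337V against WT 1 and 0. Over the 15191 genes tested, 3718, 3842 and 1012 had such a p, and DESeq2 called 9.87%, 11.3% and 0.197%. Tubb5 was at -0.12 ± 0.04 in M337V against NTg (adjusted p = 0.108) and Tuba1a at 0.10 ± 0.08 (adjusted p = 0.466).

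Pfn1, which hands actin monomers to growing filaments, was the steadiest member. It was at 101.4, 103, 106, 110.2 and 102 CPM in M337V cords 1, 2, 3, 7 and 9, at 102 and 104 CPM in WT cords 8 and 10, and at 110, 95.5 and 99.1 CPM in NTg cords 4, 5 and 6. The highest library was 1.15 times the lowest, against 1.55 times for Nefm. The log2 differences were 0.04 ± 0.05, 0.02 ± 0.07 and 0.02 ± 0.06 (SE) in M337V against NTg, WT against NTg and M337V against WT (edgeR adjusted p = 0.650, 0.872 and 0.961). Of the 26 other profilin and actin turnover genes tested 0 passed with edgeR in the 3 comparisons. In M337V against NTg 10 had an unadjusted p below 0.05, DESeq2 called 7 and limma-voom 2. In WT against NTg the counts were 12, 5 and 0, and in M337V against WT 0, 0 and 0. Over the 15191 genes tested, 3718, 3842 and 1012 had such a p in the 3 comparisons. The shares of all genes called were 9.87%, 11.3% and 0.197% with DESeq2 and 8.66%, 1.42% and 0% with limma-voom. Dstn, which severs actin filaments, was nearest at 0.22 ± 0.06 in M337V against NTg (adjusted p = 0.05003), and Pfn2, the neuronal profilin, was at 0.17 ± 0.06 (adjusted p = 0.0985).

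The coefficient of variation over the 10 libraries was set beside that of genes at least as abundant as the lowest member. It ran from 4.34% for Pfn1 to 12.8% for Nefm, with Nefh at 11.8%, Dctn1 at 10.2% and Nefl at 9.97%. The 2395 genes with a mean at or above that of Pfn1 had a median of 6.91% and quartiles of 5.19% and 9.10%. Nefm, Nefh, Dctn1, Nefl and Kif5a (9.68%) were thus above the upper quartile and Pfn1 below the lower one.

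The wider lists of related genes were counted in the same way. Over 9 lists with 165 tested genes, 7 rose and 4 fell in M337V against NTg (6.67%, against 4.29% of all genes), 9 rose and 1 fell in WT against NTg (6.06%, against 5.64%), and 0 passed in M337V against WT with 9 at an unadjusted p below 0.05. DESeq2 called 42, 32 and 0 of the 165 in these comparisons and limma-voom 25, 0 and 0. The shares of all genes called were 9.87%, 11.3% and 0.197% with DESeq2 and 8.66%, 1.42% and 0% with limma-voom. Among the 10 other intermediate filament genes 3 fell in M337V against NTg, and DESeq2 and limma-voom each called 3. They were Des, the desmin of muscle (3.34 ± 0.94 CPM in M337V against 15.6 ± 8.11 CPM in NTg, adjusted p = 0.0422), and the nuclear lamins Lmna (33.7 ± 1.57 against 40.0 ± 1.91 CPM, adjusted p = 0.0432) and Lmnb2 (17.3 ± 1.19 against 21.1 ± 1.06 CPM, adjusted p = 0.0490; SD, n = 5 and 3). Skeletal muscle and fat markers summed to 120 to 320 CPM in M337V and 254 to 1462 CPM in NTg, and their part in the Des difference was not tested.

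Among 26 axonal microtubule proteins, Map7, which helps kinesin-1 onto microtubules, rose most in M337V against NTg (172 ± 13.9 CPM in M337V cords, 160 ± 5.83 CPM in WT cords and 121 ± 13.3 CPM in NTg cords; log2 difference 0.51 ± 0.08, edgeR adjusted p = 0.0135). Map7 passed under 19 of 21 alternatives, the highest of the pathway genes named. Tppp, a microtubule protein of oligodendrocytes, rose (0.23 ± 0.06, adjusted p = 0.0494) and Crmp1, a collapsin response mediator of growing axons, fell (-0.36 ± 0.09, adjusted p = 0.0427). In WT against NTg 4 rose, among them the plus-end proteins Clasp2 (0.22 ± 0.05) and Mapre1 (0.25 ± 0.06), and Crmp1 fell (-0.50 ± 0.11), with adjusted p of 0.0314, 0.0318 and 0.0299. Of the 26, 2 rose and 1 fell in M337V against NTg and 4 rose and 1 fell in WT against NTg, where 4.29% and 5.64% of all genes passed. DESeq2 called 9 of the 26 in M337V against NTg and 7 in WT against NTg, and limma-voom called 4 and 0. The shares of all genes called were 9.87% and 11.3% with DESeq2 and 8.66% and 1.42% with limma-voom. None of the 12 genes of the axonal spectrin skeleton passed with edgeR, with Sptan1 nearest at -0.21 ± 0.06 in M337V against NTg (adjusted p = 0.0775). In M337V against NTg, WT against NTg and M337V against WT, 4, 4 and 0 had an unadjusted p below 0.05. The counts over the 15191 genes tested were 3718, 3842 and 1012. DESeq2 called 2, 1 and 0 of the 12 and limma-voom 1, 0 and 0. Among 29 other ALS genes Chmp2b, an endosomal sorting protein, rose in M337V against NTg (0.25 ± 0.06, adjusted p = 0.0483) and in WT against NTg (0.32 ± 0.08, adjusted p = 0.0374). It was the only 1 of the 29 to pass in each, beside 4.29% and 5.64% of all genes. DESeq2 called 4 and 3 of the 29 in these comparisons and limma-voom 6 and 0. Beside these stand 9.87% and 11.3% of all genes with DESeq2 and 8.66% and 1.42% with limma-voom. Over all 165 pathway genes, the number called in M337V against NTg was 11 as reported, 2 without NTg 4, 2 without NTg 5 and 0 without NTg 6. The share of all genes called fell likewise, from 4.29% to 1.3%, 1.85% and 0.0132%. In WT against NTg the number was 10 as reported, and 1, 2 and 0 without NTg 4, 5 and 6. There the share of all genes fell from 5.64% to 1.87%, 3.8% and 0.291%. The genes called without a library need not be among those called as reported. Both comparisons share the NTg libraries, so like values in M337V and WT are not independent of each other.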

How the data were processed

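The authors deposited a table of raw read counts, 1 whole number for each gene in each library, without normalisation. Per the labels' protocols, RNA was extracted from RNAlater-frozen lumbar cord and made into stranded TruSeq polyA libraries. Per the submitters' processing notes, the tools were R 3.3.0, DESeq2 1.14.1, STAR 2.4.2a, FastQC 0.11.2, Salmon 0.8.2, Trimmomatic 0.32, Subread 1.4.6, Picard 2.6.0 and featureCounts, with no step given for each. The build and the strand setting of counting were not given in the sources used here. Symbols, coordinates, exon lengths, transcripts and coding sequences came from GENCODE vM21 (GRCm38), which named 21774 of 22024 identifiers.

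Genotype labels gave the groups, and the groups share no animal number. The labels give no batch, and the library names put M337V 1 to 3 apart from the other animals. Genes with low counts were removed with filterByExpr (minimum count 10, minimum total 15), which left 15191. Counts were scaled by TMM and tested with edgeR 4.0.16 (glmQLFit, glmQLFTest) in R 4.3.3 over all 10 libraries, adjusted over all genes tested at a threshold of 0.05. The standard error is the log2 difference over the square root of F, and 95% intervals use the quasi-likelihood degrees of freedom. Alternatives were RLE size factors, 2 other filters, the compared groups alone, a robust fit, limma-voom (limma 3.58.1), DESeq2 1.42.0, each library left out, NTg 4 with WT 8, M337V 1 to 3 or M337V 7 and 9 left out, and removal of each library's spline trends over GC content and length (5 degrees of freedom each). Wherever limma-voom is named, it was run with quality weights, which give each library its own weight. Applying them to the pathway lists was added after the data were seen. No pair of libraries agreed within counting noise (lowest chi-square per degree of freedom 4.87). The fit was tested on simulated counts. The percentage given for the smallest member count covers counting error only, whereas the 95% intervals come from the fit over libraries.

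The 9 genes and the gene lists were chosen with earlier results of these data known. Of each pathway list, the genes named were up to 3 with the smallest p in M337V against NTg, and in another comparison up to 3 that passed. The 5 genes most like the neurofilament profile were named by Pearson correlation. Kif5c, Tuba1a, Pfn2, Dync1h1 and Dctn2 to Dctn6 were named as relatives of members after their values were seen. Some results that met these rules are not reported here.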

Additional observations from a re-analysis of the deposited data

Results flagged for a closer look

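A check for a single library far from the rest was run in the M337V group only. The WT (n = 2) and NTg (n = 3) groups were too small for it. Of 25 sets of M337V values checked, 2 had such a library, both sums of cell type markers, where chance alone gives about 1 in 20 sets. Astrocyte markers summed to 8650 CPM in M337V 3, below the other M337V cords at 10340 to 10840 CPM. Blood markers summed to 3588 CPM in M337V 9, above the other M337V cords at 626 to 925 CPM. No level of the 9 genes in the M337V group was flagged in this way, and their WT and NTg levels were not checked. Without M337V 3 or M337V 9 none of the 9 genes passed in any comparison.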

How the results depend on the processing

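No paired analysis was possible because the groups share no animal number. Of 567 member values under 21 alternatives, 521 had the direction and side of the threshold reported, 6 passed where the reported value did not (all Dctn1 in M337V against NTg) and 40 changed sign, none of them over 0.14 in reported size; the cause was not tested. The number of members called in M337V against NTg, 0 as reported, was 1 with limma-voom, 1 with DESeq2, 1 without M337V 7 and 9, and 0 to 1 with each library left out. With the GC and length trends removed, signs changed in M337V against NTg for Nefm (0.0351), Nefh (0.0304), Ina (0.0968), Stmn2 (-0.0123) and Tuba4a (0.015), in WT against NTg for Ina (0.1755), Kif5a (0.0176) and Tuba4a (0.1275), and in M337V against WT for Dctn1 (-0.042) and Pfn1 (-0.047). Without M337V 1 to 3 they changed for Ina (0.0519), Stmn2 (-0.0638) and Kif5a (-0.036) in M337V against NTg and for Ina (0.0524) in M337V against WT. Without NTg 4 and WT 8 they changed for Stmn2 (-0.0098) in M337V against NTg and for Ina (0.0081) and Tuba4a (0.0129) in WT against NTg. Stmn2 was -0.009 with limma-voom in M337V against NTg. Dctn1 in M337V against WT was -0.0032 with RLE, -0.0031 with DESeq2 and -0.0837 without M337V 7 and 9, and Stmn1 in M337V against NTg was -0.1912 without M337V 7 and 9. With each library left out, ranges that crossed 0 in M337V against NTg were -0.0118 to 0.0905 for Nefl, -0.0203 to 0.0415 for Stmn2 and -0.0238 to 0.1417 for Stmn1. In WT against NTg they were -0.005 to 0.1922 for Nefh, -0.0351 to 0.0082 for Ina, -0.0093 to 0.2367 for Stmn2, -0.1157 to 0.0627 for Tuba4a and -0.0196 to 0.0886 for Pfn1. In M337V against WT they were -0.0585 to 0.0101 for Ina, -0.2243 to 0.0215 for Stmn2, -0.0792 to 0.0844 for Dctn1 and -0.1557 to 0.0226 for Tuba4a.

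Of all genes tested, 651 passed in M337V against NTg, with 1499 by DESeq2, 1315 by limma-voom, 1057 with the compared groups alone, 1146 without M337V 7 and 9, 3 without M337V 1 to 3, and 2 (without NTg 6) to 1016 (without WT 10) with each library left out. In WT against NTg 857 passed, with 1720 by DESeq2, 258 with the compared groups alone, 215 by limma-voom, 142 without NTg 4 and WT 8, and 44 (without NTg 6) to 1086 (without M337V 3) with each library left out. In M337V against WT 0 passed and 1012 had an unadjusted p below 0.05, with 30 by DESeq2, 0 by limma-voom, 4 without NTg 4 and WT 8, 4 without M337V 7 and 9, 1 with no filter, 1 with a robust fit, and 0 to 6 with each library left out.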
